A study of Mus musculus with 4 samples.

Results

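The 41 genes described here encode proteins that take a cell through mitosis: the kinases and cyclins that start it, the kinetochore and its checkpoint, the spindle, the machinery of anaphase and that of cytokinesis. They were chosen by name, and all 41 were found among the 22691 genes of the expression table. Polyadenylated RNA of fibroblasts grown from female mouse embryos at E13.5 was sequenced in 4 libraries. In 2 libraries both copies of Smchd1, a chromatin protein enriched on the inactive X, carried the MD1 allele (Smchd1 MD1/MD1; Xist deltaA/+, called MD1 here), and in 2 both copies were wild type (Smchd1 +/+; Xist deltaA/+, called WT here). All 4 came from C57BL6/J crossed with JF1 x C57BL6/J F1 animals. Both groups carried Xist deltaA, a deletion that keeps the X chromosome bearing it from being silenced. JF1 reads are taken as paternal from the order in which the cross is written, and the JF1 X is the one that was nearly silent in WT. The labels do not say whether a library came from a single fetus, so p-values measure only the spread between these libraries, which may be technical.

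Mitotic genes are transcribed late in the cell cycle. In resting cells the DREAM complex holds many of them off through a short promoter element, the cell cycle genes homology region (CHR), and in cycling cells B-Myb and FoxM1 switch them on, often together with NF-Y bound at upstream CCAAT boxes. Cyclin B with Cdk1 starts mitosis, the kinetochores attach chromosomes to the spindle, and the anaphase-promoting complex (APC/C) ends it by marking cyclin B and securin for destruction. Fibroblasts in culture express these genes while they divide and lose them as they stop dividing.

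Smchd1 itself had a group mean of 1.94 FPKM (fragments per kilobase of transcript, scaled to library depth) in MD1 and 14.7 FPKM in WT, and Xist 26.9 FPKM in MD1 and 22.04 FPKM in WT. Allele-specific reads of X-linked genes numbered 704635 and 806626 in the MD1 libraries and 544330 and 521768 in the WT libraries. The depth behind the FPKM values is unknown. All 10 fibroblast markers were found, with summed levels of 5568 FPKM in MD1 and 6056 FPKM in WT. Vim was the largest part of this sum, with 2802 FPKM in MD1 and 2790 FPKM in WT. The sum hides opposed differences, since 6 markers were higher and 4 lower in MD1. Fn1 had 940 FPKM in MD1 and 370 FPKM in WT, and Pdgfra 9.25 FPKM in MD1 and 4.79 FPKM in WT. Col3a1, Col1a1 and Col1a2 had 78.7, 1081 and 477 FPKM in MD1 and 189, 1688 and 849 FPKM in WT. Of the 4 blood markers Ptprc was under 1 FPKM in both groups, and the highest was Cd68, with 9.82 FPKM in MD1 and 9.21 FPKM in WT. Of the 4 endothelial markers Pecam1, Cdh5 and Tie1 were under 1 FPKM in both groups, Tie1 being listed at 0 in MD1, while Kdr had 3.02 FPKM in MD1 and 3.26 FPKM in WT. Of the 4 epithelial markers Epcam and Cdh1 were under 1 FPKM in both groups, while Krt18 had 22.1 FPKM in MD1 and 17.1 FPKM in WT. Marker sums for blood were 12.8 FPKM in MD1 and 12.97 FPKM in WT, and for endothelium 3.29 FPKM in MD1 and 3.39 FPKM in WT. For epithelium they were 24.8 FPKM in MD1 and 19.95 FPKM in WT, and for erythroid cells 1.31 FPKM in MD1 and 1.76 FPKM in WT. The neural markers summed to 34.5 FPKM in MD1 and 24.0 FPKM in WT. Most of this sum was Tubb3, with 31.6 FPKM in MD1 and 16.4 FPKM in WT. The other neural markers were lower in MD1. Map2 had 2.05 FPKM in MD1 and 6.44 FPKM in WT, and Sox2 0.841 FPKM in MD1 and 1.09 FPKM in WT. The 4 skeletal muscle markers summed to 35.1 FPKM in MD1 and 119 FPKM in WT, and the part of any of these cell types in the results below was not tested.

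The promoters of 34 of the 41 genes could be matched by symbol in RefSeq (GRCm38.p6), each 300 bases long, from 250 before the annotated start to 50 from it on. Shown here, 5' to 3', is the promoter of the gene with the highest MD1 to WT ratio in each function group among those matched, since the genes were nearly all higher in MD1 and the letters of their shared elements can be read directly. Capitals mark TTTGAA (the CHR), CCAAT and GGCGGGAA (an E2F site), on either strand.
Mki67 (chr7:135716330-135716629, - strand): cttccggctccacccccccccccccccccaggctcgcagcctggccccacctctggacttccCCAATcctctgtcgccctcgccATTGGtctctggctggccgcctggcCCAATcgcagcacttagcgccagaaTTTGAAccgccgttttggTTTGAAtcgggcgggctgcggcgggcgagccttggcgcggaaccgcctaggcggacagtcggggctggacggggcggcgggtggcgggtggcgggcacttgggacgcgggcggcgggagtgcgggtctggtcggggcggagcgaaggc
Ttk (chr9:83834439-83834738, + strand): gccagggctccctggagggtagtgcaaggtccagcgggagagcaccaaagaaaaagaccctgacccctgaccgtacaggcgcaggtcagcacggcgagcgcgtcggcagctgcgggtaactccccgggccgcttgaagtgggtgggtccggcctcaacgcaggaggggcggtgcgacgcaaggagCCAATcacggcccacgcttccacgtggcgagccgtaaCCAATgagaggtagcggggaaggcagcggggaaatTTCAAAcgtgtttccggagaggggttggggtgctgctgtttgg
Cdk1 (chr10:69352863-69353162, - strand): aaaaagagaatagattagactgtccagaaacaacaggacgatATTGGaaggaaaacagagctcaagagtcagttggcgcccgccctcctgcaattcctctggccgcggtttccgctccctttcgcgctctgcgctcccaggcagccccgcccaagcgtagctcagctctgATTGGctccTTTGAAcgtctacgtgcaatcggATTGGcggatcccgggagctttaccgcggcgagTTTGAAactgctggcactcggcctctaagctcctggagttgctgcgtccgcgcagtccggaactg
Birc5 (chr11:117848987-117849286, + strand): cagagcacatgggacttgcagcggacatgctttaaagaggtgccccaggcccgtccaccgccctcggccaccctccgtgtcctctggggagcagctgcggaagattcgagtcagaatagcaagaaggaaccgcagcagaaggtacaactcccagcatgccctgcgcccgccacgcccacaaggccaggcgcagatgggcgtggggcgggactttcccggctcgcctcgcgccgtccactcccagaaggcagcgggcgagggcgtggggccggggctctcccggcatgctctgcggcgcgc
Ube2c (chr2:164769679-164769978, + strand): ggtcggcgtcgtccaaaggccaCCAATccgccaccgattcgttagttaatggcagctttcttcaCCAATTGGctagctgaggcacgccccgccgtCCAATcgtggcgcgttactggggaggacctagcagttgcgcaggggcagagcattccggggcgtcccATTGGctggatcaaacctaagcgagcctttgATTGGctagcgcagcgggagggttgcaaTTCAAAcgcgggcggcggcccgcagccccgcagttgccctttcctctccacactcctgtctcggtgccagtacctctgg
Kif11 (chr19:37376132-37376431, + strand): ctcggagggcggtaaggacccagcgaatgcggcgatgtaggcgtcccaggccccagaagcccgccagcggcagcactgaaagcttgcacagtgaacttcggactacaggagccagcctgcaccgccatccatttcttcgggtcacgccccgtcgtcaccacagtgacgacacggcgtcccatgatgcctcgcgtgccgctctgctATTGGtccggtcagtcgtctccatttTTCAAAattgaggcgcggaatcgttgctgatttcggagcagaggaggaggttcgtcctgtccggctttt
Prc1 (chr7:80294201-80294500, + strand): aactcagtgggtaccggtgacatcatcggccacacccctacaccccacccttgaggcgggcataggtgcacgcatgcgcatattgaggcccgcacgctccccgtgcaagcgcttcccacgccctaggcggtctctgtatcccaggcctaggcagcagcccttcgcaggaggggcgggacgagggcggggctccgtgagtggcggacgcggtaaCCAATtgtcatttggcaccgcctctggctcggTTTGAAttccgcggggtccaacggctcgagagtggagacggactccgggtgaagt

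The CHR letters stood close to the start in most of these promoters. In the Ttk promoter they began 8 bases into the transcribed part, and in those of Cdk1, Kif11, Prc1 and Ube2c they began 15, 19, 5 and 29 bases before the start. Cdk1 held a second CHR match 71 bases before the start. Mki67 had them at 116 and 98 bases before the start, and Birc5 had none of the 3 motifs in this window. Prc1 is listed with 2 promoters, of which the first is shown. In Ube2c a CCAAT box overlaps its own reverse form, which is read as a match on each strand.

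Over the first listed promoter of the 34 genes, TTTGAA was found in 25, or 73.5%, against 11.2% of 8704 promoters of genes that passed the expression filter and 17.9% of all 32851 promoters of this length. CCAAT was found in 26, or 76.5%, against 38.9% and 37.4%. GGCGGGAA was found in 0 of 34, against 4.25% and 2.19%. Both TTTGAA and CCAAT were present in 22, or 64.7%, against 4.73% and 6.95%. TTTGAA began within 50 bases of the start in 23 of the 34 genes, or 67.6%, against 2.91% of the promoters of genes that passed the filter. In 22 genes a CCAAT box lay upstream of a CHR, with a median gap of 24.5 bases, against 210 of the 8704 promoters of genes that passed the filter, with a median gap of 38.5 bases. In the DNA replication list, whose promoters are classically bound by E2F, TTTGAA was found in 3 of 19 promoters, CCAAT in 11 and GGCGGGAA in 4. In a list of 63 further mitosis genes, 49 promoters were matched. TTTGAA was found in 24 of them (49.0%), CCAAT in 32 (65.3%) and GGCGGGAA in 6 (12.2%). These matches are letters in a window and do not show binding.

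**Figure D1:**
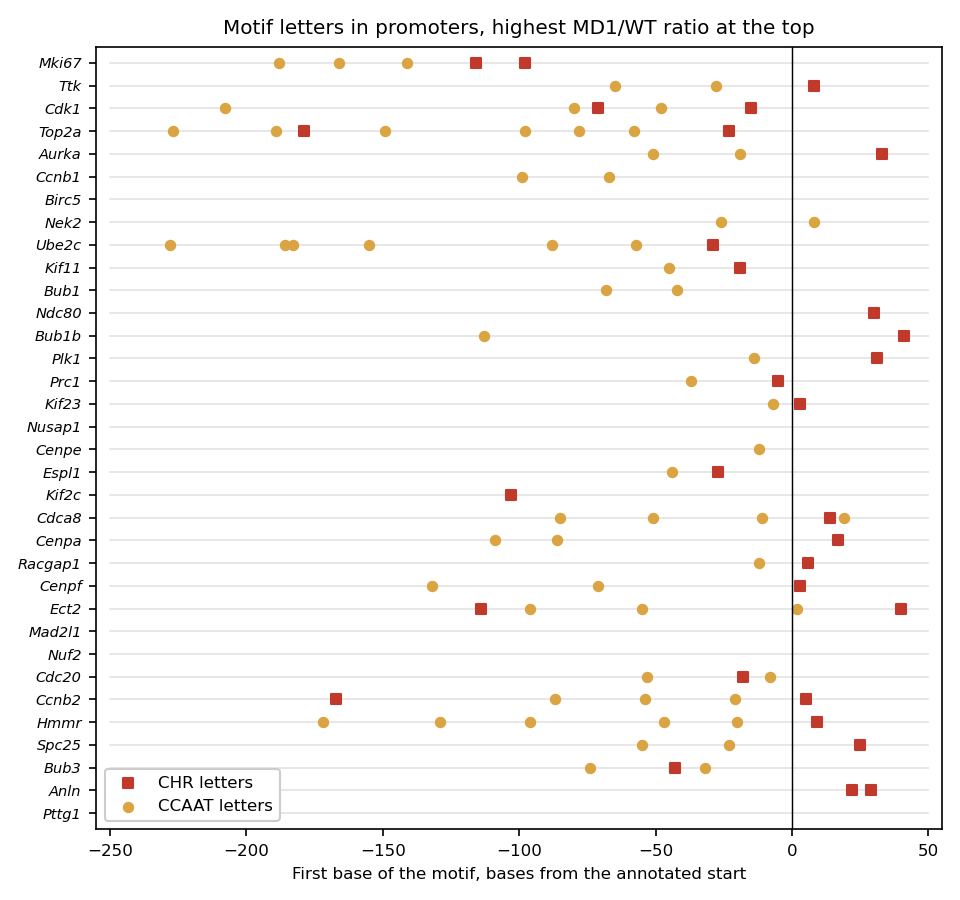
Positions of the CHR letters (TTTGAA, red squares) and of CCAAT (yellow circles), on either strand, in the first listed promoter of 34 mitosis genes. The x axis gives the distance of the first base from the annotated start in bases, and genes run down the page from the highest to the lowest MD1 to WT ratio. CHR letters began within 50 bases of the start in 23 genes, and Pttg1, at the bottom, has neither motif.

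The RNA of the mitosis genes was higher in MD1 almost without exception. FPKM was deposited as 1 mean per group, so no value per library, no error and no test can be given for these genes, and differences are described by the ratio of MD1 over WT on the log2(FPKM + 1) scale. All 41 genes passed the filter of a mean FPKM of 1. Of these 40 were higher in MD1, against 50.8% of 11399 genes, and the remaining gene was Pttg1. The median log2 ratio was 0.66 for the 41 genes and 0.0058 for all genes. A ratio of at least 1.5-fold higher was reached by 28, against 6.05% of all genes, and 0 were at least 1.5-fold lower, against 7.65%. On the FPKM values without a pseudocount the median was 1.62-fold, and 31 genes reached 1.5-fold. With a pseudocount of 5 in place of 1, 13 genes reached 1.5-fold, against 2.58% of all genes. With the pseudocount of 1 only Mki67 was at least 2-fold higher, against 1.39% of all genes, and 0 were at least 2-fold lower, against 2.81%. Without a pseudocount 2 genes reached 2-fold, Mki67 at 2.08-fold and Ttk at 2.05-fold.

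Levels summed over the 41 genes were 1586 FPKM in MD1 and 1011 FPKM in WT. A larger part of cells in division and more of these RNAs per dividing cell cannot be told apart in such bulk samples. The F1 fathers pass on JF1 segments of the autosomes, and the fetuses and cultures of the 2 groups may also differ in other ways. In these group means such differences cannot be told apart from an effect of the genotype.

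**Figure D2:**
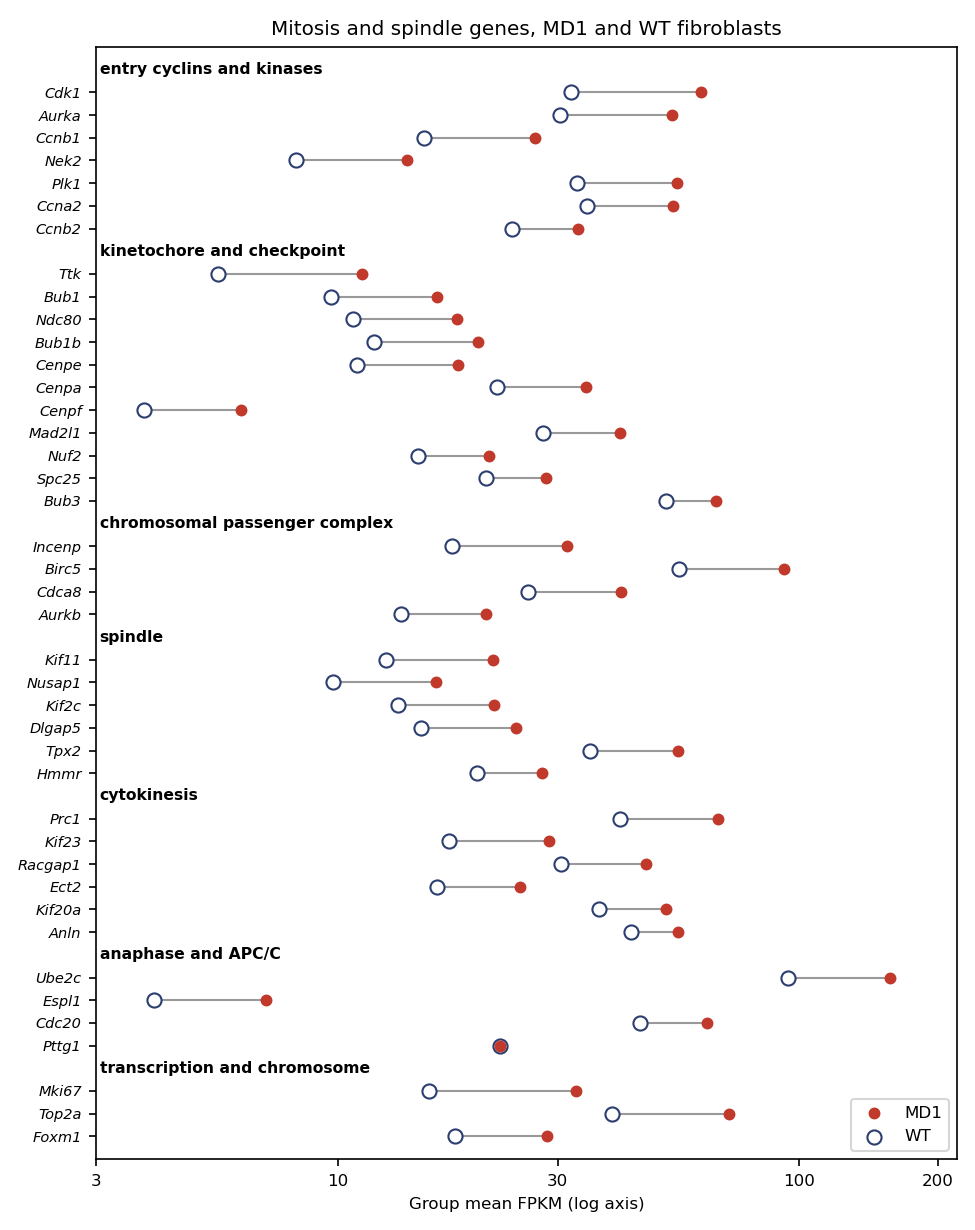
Group mean FPKM of the 41 mitosis genes on a log axis, by function group, with MD1 as filled red circles and WT as open blue circles. Each point is the authors' mean of 2 libraries and has no error bar. The MD1 point lies to the right in 40 genes, and both points of Pttg1 coincide at 22.5 FPKM.

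The 3 genes of transcription and chromosome structure had the highest median log2 ratio of the 7 function groups, 0.83. Mki67 (chromosome 7, 142881471 to 142908062, mm9), which encodes the Ki-67 protein that coats mitotic chromosomes and marks dividing cells, had 32.8 FPKM in MD1 and 15.8 FPKM in WT, a log2 ratio of 1.01. Top2a, the topoisomerase that untangles sister chromatids, had 70.4 FPKM in MD1 and 39.3 FPKM in WT (log2 ratio 0.83). Foxm1, the transcription factor of late cell cycle genes, had 28.4 FPKM in MD1 and 17.99 FPKM in WT (log2 ratio 0.63). All 3 were past 1.5-fold, against 6.05% of all genes.

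Among the 7 entry cyclins and kinases all were higher in MD1, against 50.8% of all genes, with a median log2 ratio of 0.73. Of these 6 were past 1.5-fold, against 6.05% of all genes. Cdk1 (chromosome 10, 68799383 to 68815660, mm9), the kinase that drives mitotic entry, had 61.3 FPKM in MD1 and 32.0 FPKM in WT. Its cyclins differed among themselves. Ccnb1 (cyclin B1) had 26.8 FPKM in MD1 and 15.4 FPKM in WT, and Ccna2 (cyclin A2), which acts from S phase on, 53.4 FPKM in MD1 and 34.6 FPKM in WT. Ccnb2 (cyclin B2) had 33.2 FPKM in MD1 and 23.9 FPKM in WT, the lowest ratio of the group at 0.46. The level of Ccnb1 relative to Ccnb2 was thus 0.806 in MD1 and 0.643 in WT. RefSeq lists pseudogenes of both (Ccnb1-ps and Ccnb2-ps), which could share reads with them, so these 2 values are uncertain. Aurka, the Aurora kinase of centrosomes, had 52.9 FPKM in MD1 and 30.3 FPKM in WT, while Tpx2, which activates it on the spindle, had 54.5 FPKM in MD1 and 35.2 FPKM in WT. Plk1, the polo kinase, had 54.3 FPKM in MD1 and 33.04 FPKM in WT, and the centrosome kinase Nek2 had 14.1 FPKM in MD1 and 8.11 FPKM in WT. Kinases and cyclins thus lay within a range of log2 ratios from 0.46 to 0.92.

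The 11 kinetochore and checkpoint genes were all higher in MD1, against 50.8% of all genes (median log2 ratio 0.62). Of these 6 were past 1.5-fold, against 6.05% of all genes. Ttk (chromosome 9, 83728296 to 83765997, mm9), the kinase that starts checkpoint signalling, had 11.3 FPKM in MD1 and 5.50 FPKM in WT. Its log2 ratio of 0.92 was the highest of the group. The checkpoint kinase Bub1 and the pseudokinase Bub1b (BubR1) were close to each other in ratio, at 0.70 each, with 16.4 and 20.2 FPKM in MD1 and 9.68 and 12.0 FPKM in WT. Their partner Bub3, which also acts outside the checkpoint, was the most abundant of the group, with 66.03 FPKM in MD1 and 51.4 FPKM in WT. It had the lowest ratio, 0.36. Mad2l1 (Mad2), which holds Cdc20 inactive, had 40.9 FPKM in MD1 and 27.9 FPKM in WT.

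Subunits of the NDC80 complex, which grips microtubules, differed in ratio. Ndc80 had 18.2 FPKM in MD1 and 10.8 FPKM in WT (log2 ratio 0.70), Nuf2 21.3 FPKM in MD1 and 14.9 FPKM in WT (0.48), and Spc25 28.3 FPKM in MD1 and 20.9 FPKM in WT (0.42). Ndc80 (chromosome 17, 71845440 to 71876197, mm9) is a neighbour of Smchd1, the gene mutated in MD1. Both lie on the - strand, with 20756 bases between the 3' end of Ndc80 and the start of Smchd1. Its ratio was close to the median of the 41 genes. Among centromere proteins, Cenpa, the histone H3 variant of centromeres, had 34.6 FPKM in MD1 and 22.2 FPKM in WT. The kinesin Cenpe had 18.2 FPKM in MD1 and 11.0 FPKM in WT. The large outer kinetochore protein Cenpf had 6.19 FPKM in MD1 and 3.81 FPKM in WT, the lowest level of the 41 genes in both groups. Cenpf was 1.62-fold higher in FPKM, but just under 1.5-fold on the log2(FPKM + 1) scale.

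The chromosomal passenger complex corrects faulty attachments and later guides cytokinesis, and its 4 genes were alike in ratio (0.58 to 0.79). Birc5 (survivin) had 92.9 FPKM in MD1 and 54.8 FPKM in WT, and Incenp, the scaffold, 31.4 FPKM in MD1 and 17.7 FPKM in WT. Cdca8 (borealin) had 41.2 FPKM in MD1 and 25.8 FPKM in WT. The kinase Aurkb had 20.9 FPKM in MD1 and 13.7 FPKM in WT, just under 1.5-fold on the log2(FPKM + 1) scale. The other 3 were past 1.5-fold, against 6.05% of all genes. Levels relative to Birc5 were similar in both groups, at 0.225 in MD1 and 0.250 in WT for Aurkb and 0.338 in MD1 and 0.323 in WT for Incenp.

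The 6 spindle genes had a median log2 ratio of 0.65, and 5 were past 1.5-fold, against 6.05% of all genes. Kif11, the motor that pushes spindle poles apart, had 21.7 FPKM in MD1 and 12.7 FPKM in WT. The microtubule depolymerase Kif2c had 21.8 FPKM in MD1 and 13.5 FPKM in WT. Nusap1 and Dlgap5 (HURP), which stabilise spindle microtubules, had 16.4 and 24.4 FPKM in MD1 and 9.78 and 15.2 FPKM in WT. Hmmr, a microtubule protein of spindle poles that is also known as a hyaluronan receptor, had 27.7 FPKM in MD1 and 20.1 FPKM in WT and the lowest ratio of the group, 0.45.

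Cytokinesis genes were higher in MD1 in 6 of 6 cases, against 50.8% of all genes, with a median log2 ratio of 0.58. On the log2(FPKM + 1) scale 3 were past 1.5-fold, against 6.05% of all genes. Prc1, which bundles the midzone microtubules, had 66.9 FPKM in MD1 and 40.99 FPKM in WT. Kif23 and Racgap1 form the centralspindlin complex, and had 28.8 and 46.7 FPKM in MD1 and 17.4 and 30.6 FPKM in WT. Ect2, the exchange factor that centralspindlin recruits to activate RhoA, had 24.8 FPKM in MD1 and 16.4 FPKM in WT. This was 1.51-fold in FPKM, but just under 1.5-fold on the log2(FPKM + 1) scale. The midzone motor Kif20a had 51.4 FPKM in MD1 and 36.9 FPKM in WT. Anln, the anillin scaffold of the contractile ring, had 54.5 FPKM in MD1 and 43.1 FPKM in WT, a log2 ratio of 0.33 and the second lowest of the 41 genes.

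Anaphase genes had the widest range of ratios of the 7 function groups. Ube2c, the ubiquitin-conjugating enzyme that works with the APC/C, was the most abundant of the 41 genes, with 157 FPKM in MD1 and 94.6 FPKM in WT (log2 ratio 0.73). Cdc20, an activator of the APC/C, had 63.3 FPKM in MD1 and 45.3 FPKM in WT (0.47). Espl1, which encodes separase, the protease that cuts cohesin, had 6.98 FPKM in MD1 and 3.998 FPKM in WT (0.68). Pttg1 (chromosome 11, 43233750 to 43239750, mm9), which encodes securin, the inhibitor of separase, had 22.5 FPKM in MD1 and 22.5 FPKM in WT (log2 ratio -0.00079). The level of Espl1 relative to Pttg1 was therefore 0.311 in MD1 and 0.178 in WT. Without values per library it cannot be said whether Pttg1 lies outside the spread of the other genes. Pttg1 was also among the 5 of 34 genes with none of the 3 promoter motifs, together with Birc5, Mad2l1, Nuf2 and Nusap1, which had log2 ratios of 0.48 to 0.75. These 5 were 14.7% of the 34, while 52.4% of the promoters of genes that passed the filter had none of the 3 motifs.

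The ratio was next set against the level and the promoter letters. Spearman's rho across the 41 genes between the log2 ratio and the WT level was -0.22, a description over genes that share the same libraries. The order of levels was nearly the same in both groups (Spearman's rho 0.97). Genes with TTTGAA in the promoter had a median log2 ratio of 0.68 (25 genes) and those without it 0.69 (9 genes). For CCAAT the medians were 0.69 with it (26 genes) and 0.60 without it (8 genes).

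The mitosis genes were also set beside the genes around them on the chromosomes. They lie on 16 chromosomes, none of them the X. Within 1 Mb of each gene (mm9), 2 to 49 other genes passed the filter, and the median log2 ratio of these neighbours ranged from -0.50 around Nuf2 to 0.33 around Mki67. It was above 0 for 18 of the 41 genes. All 41 genes had a higher ratio than the median of their neighbours, Pttg1 by little (-0.00079 against -0.030 for its 5 neighbours). Every gene but Pttg1 was above even the highest of these medians, so the comparison adds little to the ratios themselves. For Mki67 only 2 neighbours were measured, and for Ndc80, next to Smchd1, the 10 neighbours had a median of 0.16. The spans of 5 genes (Ccna2, Cdc20, Foxm1, Kif20a and Nusap1) overlap another gene of the table by 52 to 1595 bases, and whether strand was used in counting is not given in the sources used here, so a part of their reads may belong to the other gene.

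**Figure D3:**
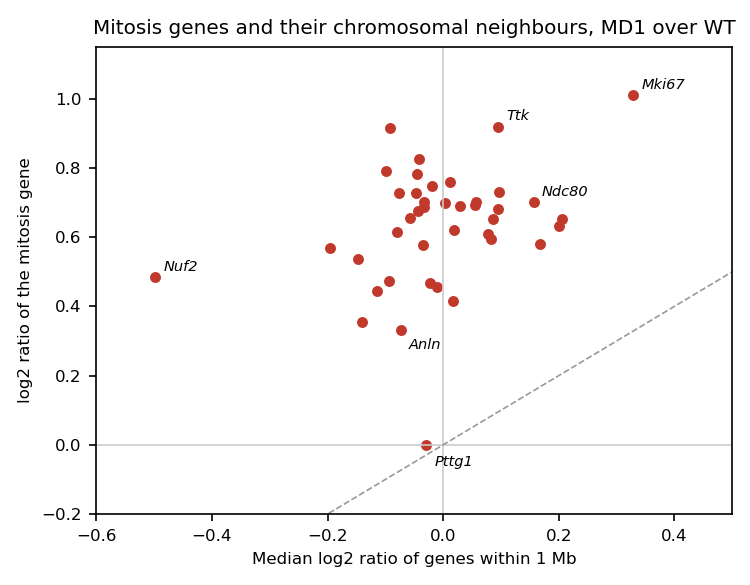
The log2 ratio of FPKM + 1, MD1 over WT, of each of the 41 mitosis genes (y axis) against the median ratio of the other genes that lie within 1 Mb of it (x axis). The dashed line marks equal values. All points lie above the line, Pttg1 by the least.

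Mitosis genes outside the 41 were also mostly higher in MD1. In a list of 63 further mitosis genes 62 were higher in MD1, 22 were past 1.5-fold higher and 0 past 1.5-fold lower, with a median log2 ratio of 0.50. The shares over all genes were 50.8%, 6.05% and 7.65%. The APC/C inhibitor Fbxo5 (Emi1) had 22.3 FPKM in MD1 and 11.2 FPKM in WT, and the cohesin protector Sgol2 11.6 FPKM in MD1 and 6.01 FPKM in WT. Cks1b, a Cdk-binding protein, was the most abundant, with 158 FPKM in MD1 and 134 FPKM in WT. Gtse1 had 39.6 FPKM in MD1 and 39.3 FPKM in WT, and the centromere protein gene Cenpt was the single gene with a lower value in MD1, at 16.3 FPKM against 19.4 FPKM in WT. The 8 condensin genes, whose products compact chromosomes, were all higher (median 0.48), from Ncaph2 with 26.3 FPKM in MD1 and 23.0 FPKM in WT to Ncapd2 with 33.02 FPKM in MD1 and 17.5 FPKM in WT. In the same list Ncapg2 had 11.8 FPKM in MD1 and 6.38 FPKM in WT, Ncaph 19.6 FPKM in MD1 and 15.6 FPKM in WT, and Smc4, the most abundant, 49.6 FPKM in MD1 and 34.9 FPKM in WT.

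The core APC/C, which is present throughout the cycle, and its activator Fzr1 had a median log2 ratio of 0.076, against 0.66 for the 41 genes. Of these 13 genes 11 were higher in MD1, against 50.8% of all genes, and 2 lower. Past 1.5-fold higher were 0, against 6.05% of all genes, and 1 (Anapc13) was past 1.5-fold lower, against 7.65%. Anapc1 had 28.5 FPKM in MD1 and 24.2 FPKM in WT, Fzr1 (Cdh1), the activator that follows Cdc20, 24.4 FPKM in MD1 and 21.1 FPKM in WT, and the abundant Anapc5 85.5 FPKM in MD1 and 81.1 FPKM in WT. Anapc10 had 7.47 FPKM in MD1 and 7.79 FPKM in WT, and Anapc13 52.8 FPKM in MD1 and 80.8 FPKM in WT. Ube2c and Cdc20 thus had higher ratios than each of these 13 genes.

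Genes of the earlier cycle and its control were set beside them. Over all genes 50.8% were higher in MD1 and 6.05% past 1.5-fold higher. The 22 DNA replication genes were all higher in MD1 (median log2 ratio 0.78, 18 past 1.5-fold), from the clamp loader gene Rfc3 with 23.3 FPKM in MD1 and 15.6 FPKM in WT to the licensing factor gene Cdt1 with 22.3 FPKM in MD1 and 10.2 FPKM in WT. Pcna, the sliding clamp, had 83.3 FPKM in MD1 and 42.7 FPKM in WT, and Rrm2, a subunit of ribonucleotide reductase and the most abundant, 178 FPKM in MD1 and 121 FPKM in WT. The 8 G1 cyclins and kinases were split, with 4 higher and 4 lower. Ccne2 and Ccne1, the E cyclins of S phase entry, had 20.4 and 45.4 FPKM in MD1 and 9.12 and 27.8 FPKM in WT. The D cyclins Ccnd2 and Ccnd3 had 105 and 80.01 FPKM in MD1 and 157 and 98.8 FPKM in WT, and Cdk4 369 FPKM in MD1 and 326 FPKM in WT.

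Of 11 DREAM and MuvB genes 3 were past 1.5-fold higher, against 6.05% of all genes, and 0 past 1.5-fold lower, against 7.65% (median 0.32). Mybl2 (B-Myb), which joins MuvB when cells divide, had 8.34 FPKM in MD1 and 4.83 FPKM in WT, and Rbl1 (p107) 8.27 FPKM in MD1 and 4.96 FPKM in WT. Rbl2 (p130), the pocket protein of DREAM in resting cells, had 7.28 FPKM in MD1 and 7.87 FPKM in WT. Lin52 had 2.77 FPKM in MD1 and 2.99 FPKM in WT, and the E2F partner Tfdp1 70.4 FPKM in MD1 and 56.1 FPKM in WT. Among 7 CDK inhibitor genes 4 were past 1.5-fold lower, against 7.65% of all genes, and 0 past 1.5-fold higher, against 6.05% (median -0.64). Cdkn2b (p15) had 38.3 FPKM in MD1 and 89.1 FPKM in WT, the Cdkn2a locus, which encodes p16 and p19Arf, 37.01 FPKM in MD1 and 70.9 FPKM in WT, and Cdkn1a (p21) 237 FPKM in MD1 and 370.1 FPKM in WT. Cdkn2c (p18) had 10.2 FPKM in MD1 and 8.32 FPKM in WT, and Cdkn2d (p19) 1.32 FPKM in MD1 and 1.34 FPKM in WT. The part of these differences in those of the mitosis genes was not tested.

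**Figure D4:**
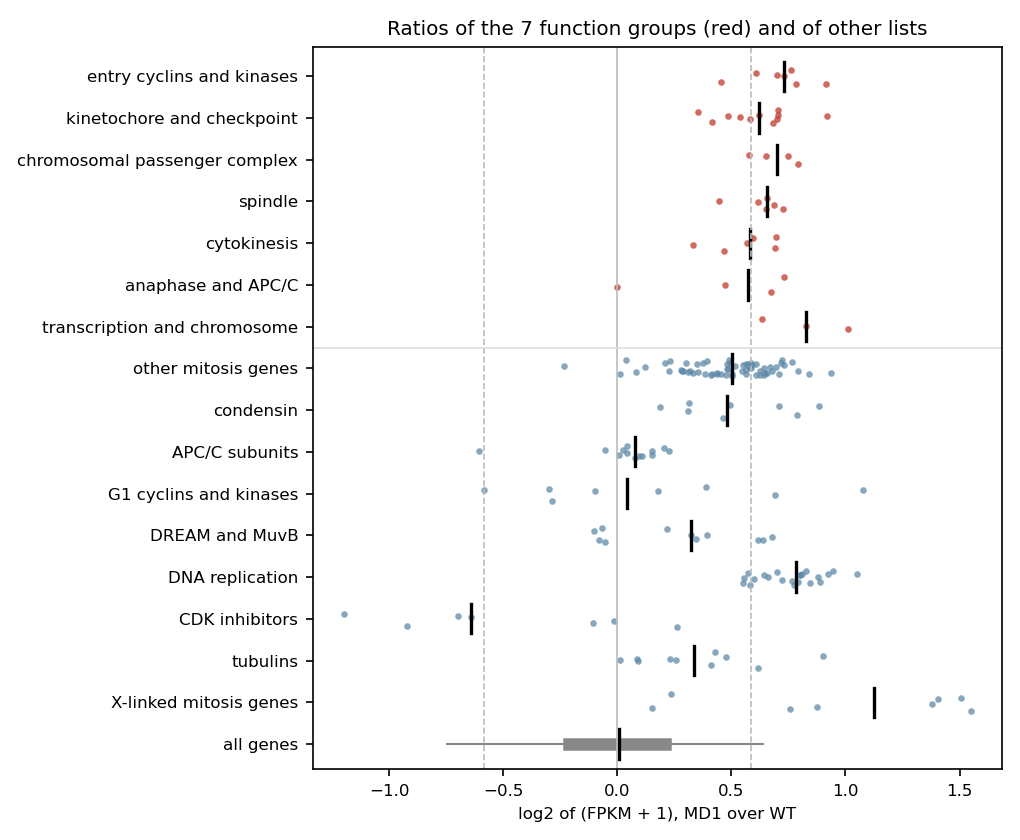
Ratios of MD1 over WT, as log2 of (FPKM + 1), for each gene of the 7 function groups (red, 41 genes) and of 9 other lists (blue), with black bars at the medians and dashed lines at 1.5-fold. The grey bar for all 11399 genes spans the middle 50% and the thin line the 5th to 95th percentile. Every function group has its median between 0.57 and 0.83, while the CDK inhibitors have theirs at -0.64.

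Values per library exist for X-linked genes, and these hold mitosis genes too. From a list of 9 such genes, 6 had an allele share in all 4 libraries and a mean of 20 or more allele-specific reads, which 391 X-linked genes had. They were Kif4, a kinesin that binds chromosomes, Ercc6l (PICH), a translocase found on the DNA bridges of anaphase, Cenpi of the inner kinetochore, Haus7 of the augmin complex that multiplies spindle microtubules, and Stag2 and Smc1a of cohesin. In FPKM they exceeded most of the 41 autosomal genes in ratio. Kif4 had 26.4 FPKM in MD1 and 8.36 FPKM in WT, Ercc6l 14.9 FPKM in MD1 and 4.59 FPKM in WT, and Cenpi 16.2 FPKM in MD1 and 5.63 FPKM in WT, or 3.16-, 3.24- and 2.89-fold higher. Haus7 had 51.5 FPKM in MD1 and 18.8 FPKM in WT, Smc1a 64.8 FPKM in MD1 and 34.9 FPKM in WT, and Stag2 40.6 FPKM in MD1 and 23.6 FPKM in WT. RefSeq lists a transcribed pseudogene of Kif4 (Kif4-ps), so the Kif4 level is uncertain.

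These RNAs can be divided by parental X. Maternal reads come from the X that is active in both groups, and are given as CPM, that is, scaled to a fixed total of maternal reads over the 391 genes, after TMM scaling. Kif4 had 3266 and 3021 CPM in MD1 and 1142 and 2158 CPM in WT. Ercc6l had 1940 and 2258 in MD1 and 861 and 1308 in WT, and Cenpi 1693 and 1592 in MD1 and 638 and 1125 in WT. In these 3 genes the WT libraries were far apart, replicate 2 being 1.52- to 1.89-fold above replicate 1, while the MD1 libraries differed by 0.925- to 1.16-fold. Haus7 had 625 and 566 CPM in MD1 and 456 and 455 CPM in WT. Stag2 had 1086 and 1425 in MD1 and 1016 and 1059 in WT, and Smc1a 2830 and 2312 in MD1 and 1965 and 2166 in WT. In all 6 genes each MD1 library was higher than either WT library, as in 21.0% of the 391 genes.

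In edgeR's quasi-likelihood test on maternal reads 0 of the 6 genes passed at an FDR of 0.05, and over the 391 genes 0.512% rose and 1.02% fell. The log2 fold changes with their approximate SE were 0.93 ± 0.33 for Kif4, 0.95 ± 0.26 for Ercc6l and 0.90 ± 0.30 for Cenpi, with adjusted p-values of 0.405, 0.345 and 0.405 in edgeR. For Haus7, Smc1a and Stag2 they were 0.39 ± 0.21, 0.32 ± 0.19 and 0.28 ± 0.21, with adjusted p-values of 0.522, 0.576 and 0.643 in edgeR. At an unadjusted p under 0.05 there were 3 of the 6, all higher in MD1, against 4.86% of the 391 genes in that direction, and DESeq2 called 0. Without WT replicate 2 the log2 fold changes were 1.46 for Kif4, 1.29 for Ercc6l and 1.36 for Cenpi. Without WT replicate 1 they were 0.56, 0.70 and 0.56. The lowest adjusted p-values below for these 3 genes came without WT replicate 2. That fit assumes that the lone WT library varies like the MD1 ones. Over all alternatives, in edgeR or DESeq2, the adjusted p ranged from 2.00e-05 to 0.884 for Kif4, from 0.000388 to 0.884 for Ercc6l and from 0.000463 to 0.884 for Cenpi. It ranged from 0.306 to 0.884 for Haus7, from 0.367 to 0.884 for Smc1a and from 0.430 to 0.966 for Stag2. The group means in FPKM of the 41 autosomal genes hide any spread of this kind between libraries.

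Reads of the paternal X were the other part. The paternal share of Kif4 reads was 43.0% ± 0.639 in MD1 and 0% in both WT libraries (SD, n = 2 each), where 0 of 1620 reads allow up to 0.185%, counting error only. In Ercc6l it was 43.6% ± 1.21 in MD1 and 0.483% ± 0.683 in WT, and in Cenpi 37.7% ± 0.198 in MD1 and 0.0890% ± 0.126 in WT (SD, n = 2 each). Haus7 reached 54.0% ± 5.35 in MD1 against 0 of 444 reads in WT, which allow up to 0.676%, Smc1a 39.2% ± 0.396 in MD1 and 0.139% ± 0.196 in WT, and Stag2 36.9% ± 2.03 in MD1 and 0.206% ± 0.291 in WT (SD, n = 2 each). Both MD1 libraries were above both WT libraries in all 6, as in 77.5% of the 391 genes. All 6 rose in edgeR's test of the share, with adjusted p-values from 8.46e-92 for Smc1a to 2.97e-45 for Haus7, against 74.4% of the 391 genes that rose. An exact two-sided permutation test gives p = 0.3333 for each, the smallest that 2 libraries against 2 allow.

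The other 3 genes of the X-linked list had too few allele-specific reads. Cetn2 (centrin 2) had 15 and 9 reads in MD1 and 11 and 2 in WT, Hdac8, which deacetylates cohesin, 0 and 1 in MD1 and 5 and 0 in WT, and Ccnb3 0 in all 4 libraries. In FPKM Cetn2 had 24.6 in MD1 and 20.8 in WT and Hdac8 6.64 in MD1 and 5.87 in WT, while Ccnb3 was listed at 0 in MD1 and at 0.00719 in WT.

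**Figure D5:**
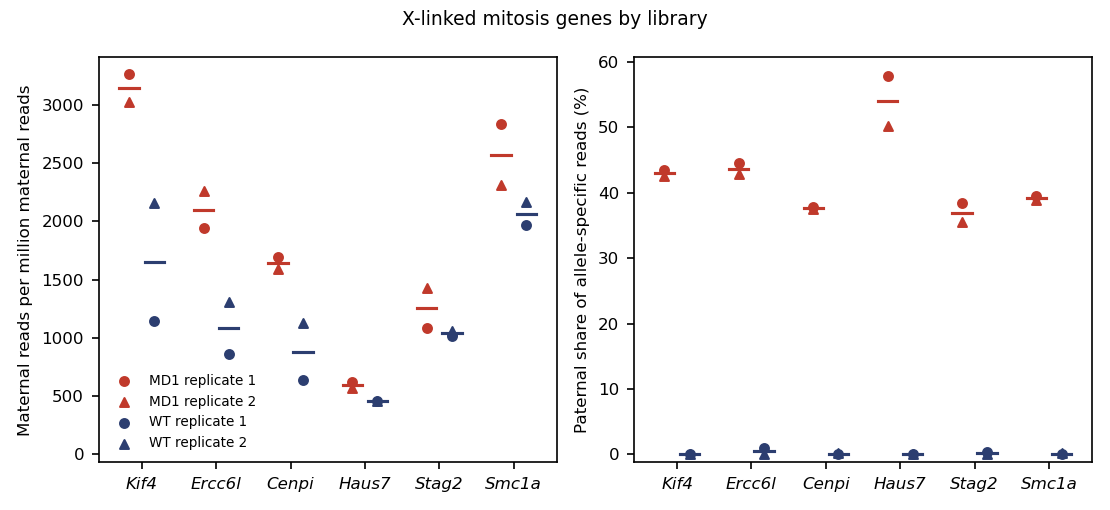
Values per library for 6 X-linked mitosis genes, with MD1 (red) left of WT (blue), circles for replicate 1, triangles for replicate 2 and bars at the means of 2 libraries. Left, maternal CPM, where both MD1 libraries are higher than both WT libraries in all 6 genes and the 2 WT libraries lie far apart in Kif4, Ercc6l and Cenpi. Right, the paternal share in percent, which is 35.5% to 57.8% in MD1 and under 1% in WT.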

How the data were processed

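FPKM was deposited as 1 mean per group by the authors, allele-specific reads as counts per X-linked gene and library, and the JF1 share of these reads as a fraction. Per the submitters' processing notes, mm9, Cufflinks 2.2.1 and Cuffdiff were used, with no role given, and the labels name a stranded mRNA kit. The sources used here do not give the aligner or the annotation. With FPKM as group means the limma test foreseen could not be fitted, so ratios of FPKM + 1 are described for the 11399 genes detected in both groups whose 2 values average at least 1 FPKM. JF1 counts were share times reads, whole within 2.18e-11. Replicates differed beyond sampling noise (chi-square per degree of freedom 79.2 in MD1 and 88.01 in WT).

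Paternal shares and maternal reads were tested with edgeR 4.0.16 (R 4.3.3), quasi-likelihood, Benjamini-Hochberg adjusted over 391 genes at an FDR of 0.05, two-sided, after tests on simulated data. The spread of the simulated data was fixed beforehand and not estimated from these libraries, so it gives no error rate for them. The share fit had a term per library and an allele-by-genotype term, and the maternal fit used TMM. DESeq2 1.42.0 was an alternative. SE is the log2 fold change over the square root of F. The 41 genes and all lists were chosen with earlier results of these data known. Named outside the 41 were Smchd1, Xist, the X-linked list and, in each list, up to 2 genes with the highest ratio, 2 with the lowest and the most abundant. Protein sequences were not used here.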

Additional observations from a re-analysis of the deposited data

How the results depend on the processing

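The log2 ratios of the 41 genes kept their sign in all 246 values under other pseudocounts, filters and scalings, that of Pttg1 being -0.00079 in the main setting. A pseudocount or a filter cannot change a sign. Only quantile normalization and scaling to the median autosomal gene could have done so. The median of the 41 ratios was 0.54 with a pseudocount of 5, where 13 genes reached 1.5-fold and 0 reached 2-fold. The count at 2-fold was 2 with a pseudocount of 0.1 and 0 with quantile normalization. The paternal share test called 6 of 6 X-linked mitosis genes under every edgeR setting and with each library left out (6 to 6), and the exact permutation test 0, as it cannot pass. For maternal reads the count was 0 to 3 with 1 library left out, the 3 coming without WT replicate 2. With the replicate block it was 3 (Kif4, Ercc6l and Cenpi), and over the 391 genes 43 were called, against 6 without the block, 13 in DESeq2 and 0 to 33 with 1 library left out. The block changed no other call in the list. Same-numbered libraries deviated together in maternal reads (r = 0.40 across 391 genes), but 2 pairs with only a shared number do not show a pairing. Leaving out a library was not possible for FPKM, which has 1 mean per group. The fit with no filter on reads still needed a share in all 4 libraries (396 genes), since JF1 reads are known only through it.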

Other observations

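Tubulin genes, the building material of spindle and cytoplasmic microtubules alike, were higher in MD1 in 10 of 10 cases, against 50.8% of all genes. Of these 2 were past 1.5-fold, against 6.05% of all genes, and the median log2 ratio was 0.34. Tubb5, the most abundant, had 869 FPKM in MD1 and 624 FPKM in WT. Tubb3, best known from neurons, had 31.6 FPKM in MD1 and 16.4 FPKM in WT, and Tuba1c 60.6 FPKM in MD1 and 39.1 FPKM in WT. Tuba1a had 480 FPKM in MD1 and 475 FPKM in WT, and gamma-tubulin Tubg1 38.7 FPKM in MD1 and 36.4 FPKM in WT. Some tubulin genes are near-identical in sequence, so reads may be split between these and their single values are uncertain.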
